A study of Mus musculus with 2 samples.

Results

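The genes of the mitochondrial protein import machinery were followed in polyadenylated RNA of 1 mouse heart, taken from a female C57BL/6J adult aged 10 weeks. Members were chosen by name: every protein-coding gene whose symbol starts with Timm or Tomm, with Pam16, Samm50, Mtx1, Mtx2, Chchd4, Gfer, Pmpca, Pmpcb and Grpel1. This gave 35 of the 21461 nuclear protein-coding genes in the deposited tables, on 18 chromosomes, with Timm17b and Timm8a1 on X. There were 2 libraries, technical replicates 2 and 1 of 1 biological replicate, and no treatment or genotype was compared. RNA was extracted with a kit for fatty tissue, the size range is labelled 350 to 450, and replicate 2 dates from 2015, later than the publication that used replicate 1. With 1 animal, every spread given here is technical, and the tests compare these libraries, not conditions.

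Most mitochondrial proteins are encoded in the nucleus, made in the cytosol and imported as unfolded chains. They enter through the TOM complex of the outer membrane and are then sorted: barrel-shaped proteins to the SAM complex, small cysteine-rich proteins to the disulfide relay of the intermembrane space, carriers through the small TIM chaperones to TIM22, and proteins with a cleavable presequence to TIM23. The PAM motor pulls the presequence proteins into the matrix, where the processing peptidase MPP removes the presequence. Heart muscle is rich in mitochondria and depends on this supply of respiratory proteins.

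The small TIM chaperones bind hydrophobic precursors in the intermembrane space, and each has a pair of CX3C motifs whose cysteines form disulfide bonds. The coding sequences of 5 of these 7 genes are shown because the libraries differed widely among them, from Timm13, with 542 counts in replicate 2 and none in replicate 1, to Timm8a1, with fewer counts in replicate 2 than in replicate 1. Each is written 5′ to 3′ without its stop codon, from GENCODE release M21 of GRCm38, and capitals mark the 4 cysteine codons of the twin CX3C spacing, which a search of codons found in every one of the 7 genes. In the same order, the genes lie at chr10:80899450-80900969 on the minus strand, chr2:84826997-84830213 on the plus strand, chr12:71123173-71136684 on the minus strand, chrX:134537256-134541865 on the minus strand and chr9:50603910-50605320 on the plus strand.
Timm13: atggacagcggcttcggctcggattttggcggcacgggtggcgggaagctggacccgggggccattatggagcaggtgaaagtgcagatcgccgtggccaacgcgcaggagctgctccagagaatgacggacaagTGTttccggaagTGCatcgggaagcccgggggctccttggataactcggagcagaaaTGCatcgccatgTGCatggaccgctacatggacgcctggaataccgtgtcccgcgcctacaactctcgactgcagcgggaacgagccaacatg
Timm10: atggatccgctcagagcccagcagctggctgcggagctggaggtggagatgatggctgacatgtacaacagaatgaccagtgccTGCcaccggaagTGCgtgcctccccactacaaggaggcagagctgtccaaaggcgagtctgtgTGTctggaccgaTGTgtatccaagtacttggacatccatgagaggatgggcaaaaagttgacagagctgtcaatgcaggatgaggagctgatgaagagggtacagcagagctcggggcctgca
Timm9: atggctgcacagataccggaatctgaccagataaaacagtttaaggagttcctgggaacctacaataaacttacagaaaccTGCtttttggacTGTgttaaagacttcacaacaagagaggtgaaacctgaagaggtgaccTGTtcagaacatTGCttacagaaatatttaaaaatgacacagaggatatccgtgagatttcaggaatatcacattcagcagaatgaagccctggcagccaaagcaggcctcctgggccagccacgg
Timm8a1: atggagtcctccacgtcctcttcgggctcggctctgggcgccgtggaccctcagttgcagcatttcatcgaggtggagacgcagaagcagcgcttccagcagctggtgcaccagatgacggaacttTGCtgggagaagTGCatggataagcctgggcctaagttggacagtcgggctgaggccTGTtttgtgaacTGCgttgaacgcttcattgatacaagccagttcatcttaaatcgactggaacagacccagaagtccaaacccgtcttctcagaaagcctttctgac
Timm8b: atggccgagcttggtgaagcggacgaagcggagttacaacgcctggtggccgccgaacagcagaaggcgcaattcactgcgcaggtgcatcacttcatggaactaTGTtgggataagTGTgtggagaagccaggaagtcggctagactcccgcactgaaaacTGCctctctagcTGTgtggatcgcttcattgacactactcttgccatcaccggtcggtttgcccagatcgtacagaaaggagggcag

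The cysteine framework was shared, but base composition was not. The GC content of the coding sequence was 61.4% in Timm13, 61.0% in Timm10b, 59.8% in Timm8a2, 56.3% in Timm10, 55.4% in Timm8b, 54.6% in Timm8a1 and 44.2% in Timm9. At the third codon position it was 85.3% in Timm13 and 48.3% in Timm9. The coding sequences of Timm8a1 and Timm8a2 have the same length, 291 bases, and were identical at 225 positions (77.3%), yet Timm8a2 had no count in either library.

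Whole-library facts frame these values. The library of replicate 2 had 19685821 counts, 12509996 of them on nuclear protein-coding genes, and that of replicate 1 had 22775991, with 4930610 on such genes. Mitochondrially encoded genes took 25.3% of counts in replicate 2 and 61.7% in replicate 1. TPM is an abundance corrected for length that sums to the same total in each library. Nuclear protein-coding genes held 38.3% of it in replicate 2 and 7.005% in replicate 1. One TPM therefore equals 2.61 TPM rescaled to nuclear protein-coding genes ("nuclear TPM") in replicate 2, and 14.3 in replicate 1. All 6 cardiomyocyte markers exceeded 1 TPM in both libraries, with summed levels of 28850 TPM in replicate 2 and 1026 TPM in replicate 1. In nuclear TPM these sums were 75330 and 14640. Ryr2 went the other way on that scale, with 286 in replicate 2 and 368 in replicate 1, and the other 5 were higher in replicate 2. Red cell markers summed to 5027 TPM in replicate 2 and 72.2 TPM in replicate 1, and the 5 genes listed for skeletal muscle to 1170 TPM and 1.67 TPM. Of that sum in replicate 2, 1080 TPM came from Ckm and 75.5 TPM from Acta1, which heart muscle also makes, and Tnni2, Mybpc2 and Casq1 had between 3.42 and 5.52 TPM. None of the 5 reached 1 TPM in replicate 1. In nuclear TPM, red cell markers summed to 13120 in replicate 2 and 1031 in replicate 1, and the skeletal muscle list to 3054 and 23.8. Markers of endothelial cells, fibroblasts, macrophages and smooth muscle summed to between 166 and 416 TPM in replicate 2. In replicate 1 they summed to between 12.6 and 191 TPM. In nuclear TPM, fibroblast markers summed to 1085 in replicate 2 and 2720 in replicate 1, and smooth muscle and pericyte markers to 743 and 1499. Single genes weighed heavily in both sums. Dcn alone had 789 and 2039 nuclear TPM, and Rgs5 alone had 328 and 1435. By the count test described below, 4 of the 5 smooth muscle and pericyte markers were called higher in replicate 2 and 1 lower. Of the 5 fibroblast markers, 1 was called higher, 1 lower and 3 neither. Endothelial markers summed to 621 and 238 nuclear TPM, and macrophage markers to 433.5 and 180. The part of these shifts in the results below was not tested. Both libraries are technical replicates of 1 heart, so these are shifts between libraries, not between animals. For the level of a marker within a library, cell number and RNA per cell cannot be told apart.

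The import genes were expressed across the machinery: 33 of 35 reached 1 TPM in replicate 2 and 25 in replicate 1, the same 25 in both. Their summed level was 1374 TPM in replicate 2 and 277 TPM in replicate 1, a mean of 825 ± 775 TPM (SD, n = 2 technical replicates). On the nuclear TPM scale the sums were closer, at 3587 in replicate 2 and 3956 in replicate 1. The median of the 33 tested members was 74.0 nuclear TPM in replicate 2 and 44.1 in replicate 1. Over the 12464 tested genes that are nuclear and protein-coding, the medians were 17.23 in replicate 2 and 12.99 in replicate 1. The highest-ranked member among nuclear protein-coding genes was Timm8b in replicate 2, at rank 396, and Pmpcb in replicate 1, at rank 108. Deposited TPM was higher in replicate 2 for all 33 members with counts there, by as little as 9.64 against 9.61 TPM for Timm8a1.

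**Figure D1:**
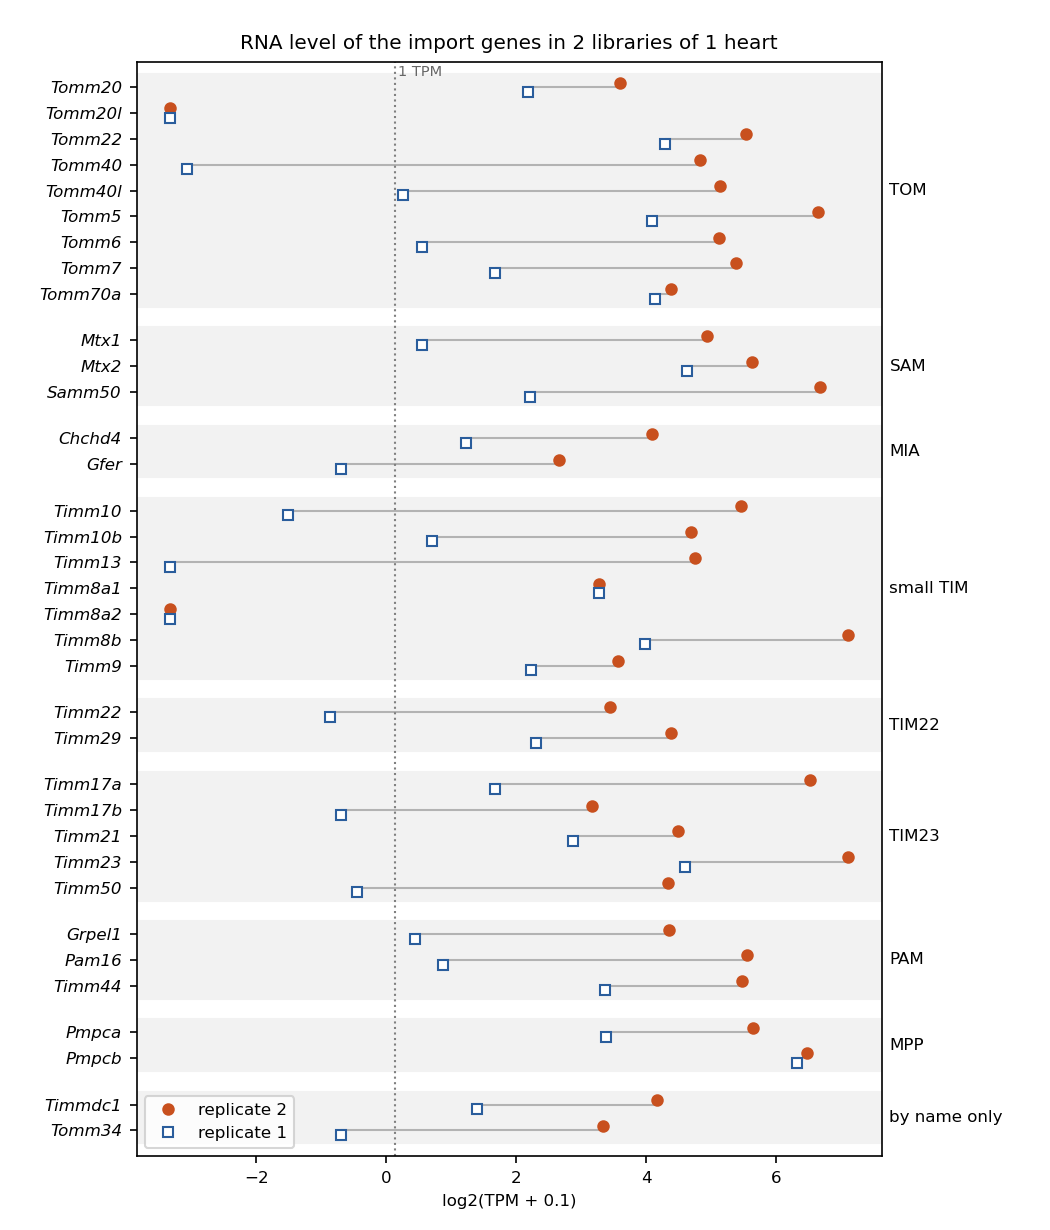
Level of each of the 35 genes, as log2(TPM + 0.1), with filled circles for replicate 2 and open squares for replicate 1, grouped by complex; the dotted line is 1 TPM. Nearly all genes sit further right in replicate 2, Timm8a1 has nearly the same level in both, and Tomm20l and Timm8a2 are at 0 in both libraries.

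Counts scaled between the libraries gave a difference in both directions. Expected counts were rounded and compared gene by gene with edgeR's exact binomial test, with library sizes scaled by TMM and Benjamini-Hochberg adjustment over all tested genes. A gene was called at an adjusted p under 0.05 and a difference of at least 2-fold. Of the 33 members with at least 20 counts over both libraries, 16 (48.5%) were higher in replicate 2, against a background of 40.5% of all tested genes. In the other direction 3 members (9.09%) were lower in replicate 2, against a background of 24.0%, and 14 were not called. The median log2 ratio of the members was 0.91, with Timm13 at its fitted value or at its bound, and that of all tested genes was 0.37. The 16 higher members came from 8 of the 9 groups below, and MPP had none.

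**Figure D2:**
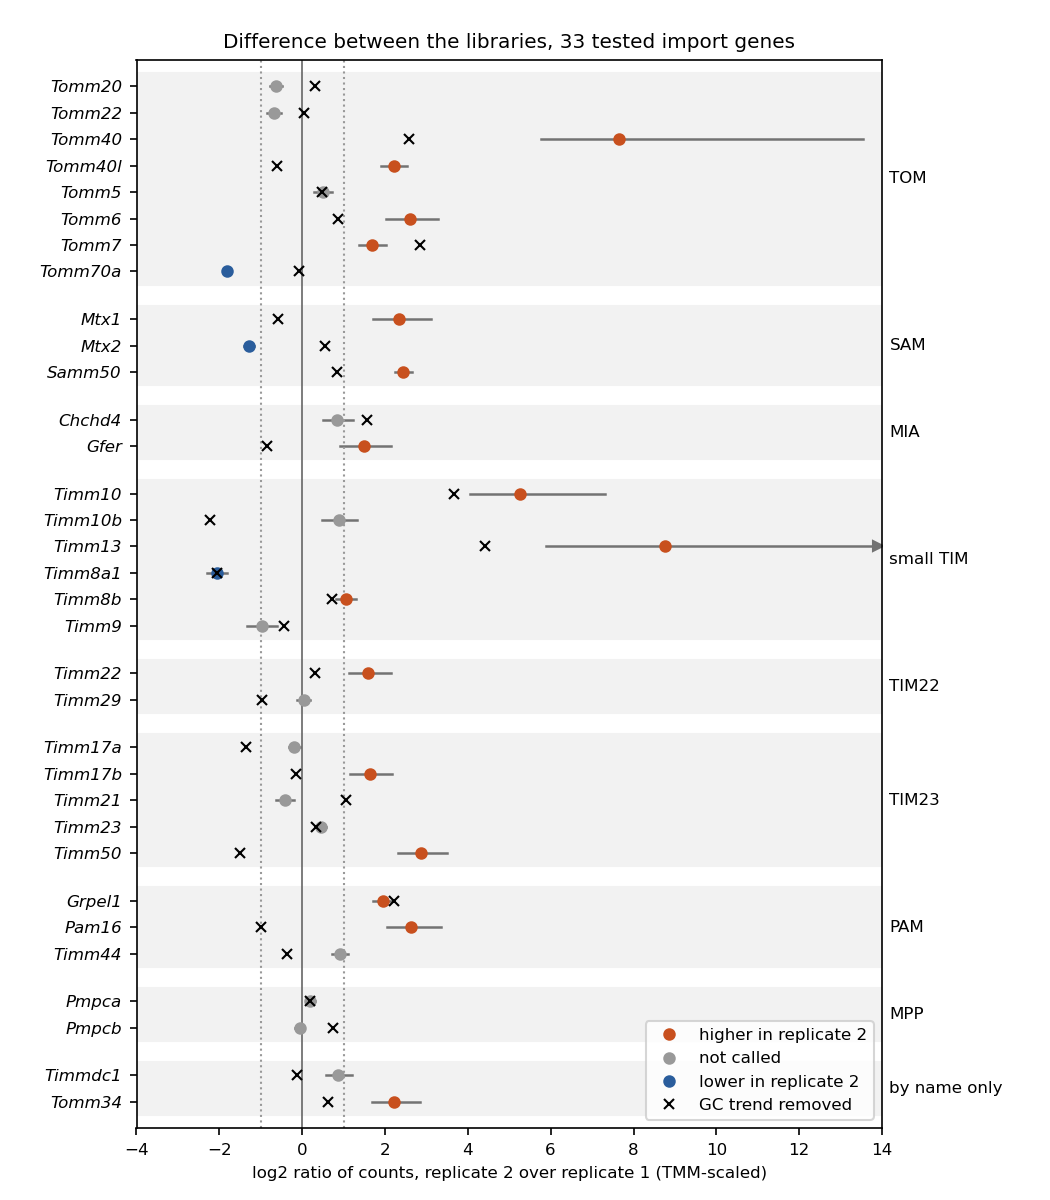
Log2 ratio of scaled counts, replicate 2 over replicate 1, for the 33 tested genes by complex, with exact 95% intervals of counting error; crosses give the ratio after the trend with GC content was removed, and dotted lines mark a 2-fold difference. Tomm40, Timm10 and Timm13 have the highest ratios and Timm8a1 and Tomm70a the lowest.

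The TOM complex held 320 TPM in replicate 2 and 64.1 TPM in replicate 1, which was 23.3% and 23.1% of the members' TPM. The barrel gene Tomm40, its relative Tomm40l and the small subunits Tomm6 and Tomm7 were called higher in replicate 2, and the receptor gene Tomm70a was called lower. Tomm40, the barrel that forms the channel, had 28.3 TPM and 752 counts in replicate 2, against 0.02 TPM and 1 count in replicate 1. The ratio of 302 has an exact 95% interval of 54.0 to 11940, since it rests on 1 count. Its paralog Tomm40l had 35.2 TPM and 1088 counts in replicate 2, against 1.1 TPM and 94 counts in replicate 1, a 4.65-fold difference. Both channel genes were therefore called higher in replicate 2, and Tomm40 was by far the lower of the pair in replicate 1. Once the trend with GC content was removed, Tomm40 kept its call (log2 ratio 2.59) and Tomm40l did not (-0.60). Tomm70a, a receptor for carrier precursors, had 20.7 TPM and 1438 counts in replicate 2, against 17.5 TPM and 2041 counts in replicate 1. Scaled for library size, Tomm70a was 3.53-fold lower in replicate 2.

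The presequence receptor Tomm20 had 12.0 TPM in replicate 2 and 4.46 TPM in replicate 1, and Tomm22, the receptor that organizes the complex, had 46.6 TPM and 19.6 TPM. Their scaled count ratios were 0.64 and 0.63, short of the 2-fold needed for a call. Tomm20l, a relative of Tomm20, had no count in either library, where 3 counts would be 1.52e-05% of the total in replicate 2 and 1.32e-05% in replicate 1. Among the small subunits that stabilize the channel, Tomm6 had 34.9 TPM in replicate 2 against 1.36 TPM in replicate 1 (6.19-fold higher counts). Tomm7 had 41.7 TPM in replicate 2 against 3.09 TPM in replicate 1 (3.23-fold higher counts). Tomm5, the most abundant TOM gene in replicate 2, had 100.3 TPM there and 17.0 TPM in replicate 1, and its count ratio of 1.42 was not called.

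The SAM complex, which inserts barrel proteins into the outer membrane, held 183 TPM in replicate 2 and 30.5 TPM in replicate 1. Samm50, its barrel subunit, had 102 TPM and 2939 counts in replicate 2, against 4.52 TPM and 218 counts in replicate 1, a 5.41-fold difference. The metaxins, its partners on the cytosolic face, were called in opposite directions, and neither was called once the trend with GC content was removed (log2 ratio -0.60 for Mtx1 and 0.55 for Mtx2). Mtx1 had 30.5 TPM and 259 counts in replicate 2, against 1.37 TPM and 20 counts in replicate 1 (5.201-fold higher). Mtx2 had 49.7 TPM and 1233 counts in replicate 2, against 24.6 TPM and 1205 counts in replicate 1 (2.43-fold lower).

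The disulfide relay (MIA) was low in both libraries, with 23.2 TPM in replicate 2 and 2.76 TPM in replicate 1 over its 2 genes. Chchd4, the oxidoreductase that folds incoming cysteine-rich proteins, had 17.0 TPM in replicate 2 and 2.24 TPM in replicate 1, and its count ratio of 1.81 was not called. Gfer, the sulfhydryl oxidase that reoxidizes it, had 6.22 TPM in replicate 2 and 0.52 TPM in replicate 1, with 2.84-fold higher counts. A stretch of the gene Dst is 99.8% identical to Gfer over 573 bases, so some reads may be split between them. Chchd4 exceeded Gfer in both libraries, by 1.43 in replicate 2 and 1.92 in replicate 1 on the log2 TPM scale.

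The small TIM chaperones, substrates of that relay and carriers of hydrophobic precursors, held 257 TPM in replicate 2 and 31.8 TPM in replicate 1, and they spanned the whole range of library differences. Timm13, whose GC-rich sequence is printed above, had 27.0 TPM and 542 counts in replicate 2 and no count in replicate 1. With 3 counts as the limit that a count of 0 allows, Timm13 was at least 72.6-fold higher in replicate 2. Timm10 had 44.1 TPM and 428 counts in replicate 2, against 0.25 TPM and 4 counts in replicate 1. The Timm10 ratio was 43.0, with an exact interval of 16.7 to 158. Timm9, the partner with which Timm10 forms a hexamer, had 11.8 TPM and 149 counts in replicate 2, against 4.61 TPM and 118 counts in replicate 1. Its count ratio of 0.51 just missed the call.

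Timm8b, the small TIM with the highest level in both libraries, had 138 TPM and 906 counts in replicate 2, against 15.8 TPM and 174 counts in replicate 1 (2.09-fold higher). That call is lost with DESeq2 size factors, where the log2 ratio is 0.98. Timm8a1, a partner of Timm13 and the counterpart of the human deafness-dystonia gene, had 9.64 TPM and 230 counts in replicate 2, against 9.61 TPM and 385 counts in replicate 1, a 4.17-fold lower scaled count. The pseudogene Gm9797 is identical to Timm8a1 over 612 bases and took 27.5% of their joint count in replicate 2 and 9.27% in replicate 1, so reads of the pair may be split between them. That joint count, before scaling, was 317 in replicate 2 and 424 in replicate 1, so it was also lower in replicate 2. Timm10b had 25.7 TPM in replicate 2 and 1.54 TPM in replicate 1, and its count ratio of 1.85 was not called.

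TIM22, the carrier translocase of the inner membrane, held 31.7 TPM in replicate 2 and 5.29 TPM in replicate 1. Timm22, its channel, had 10.9 TPM in replicate 2 and 0.45 TPM in replicate 1, with 3.05-fold higher counts. Timm29, a subunit that links it to TOM in human cells, had 20.8 TPM in replicate 2 and 4.84 TPM in replicate 1, and its scaled counts were nearly equal, with a ratio of 1.03 (interval 0.92 to 1.15).

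TIM23, the presequence translocase, held 281 TPM in replicate 2 and 35.7 TPM in replicate 1. Timm23, its channel subunit, had 138 TPM and 2617 counts in replicate 2, against 24.2 TPM and 765 counts in replicate 1, a ratio of 1.37 that was not called. Gm10273, an annotated protein-coding gene 99.9% identical to Timm23 over 1121 bases, had 16.7 counts in replicate 2 against 52.8 in replicate 1. Timm17a had 92.03 TPM and 1559 counts in replicate 2, against 3.11 TPM and 715 counts in replicate 1. Its count ratio was 0.88, so TPM and counts gave different pictures of this gene, which is taken up below. Timm17b, the X-linked alternative subunit, had 8.89 TPM in replicate 2 and 0.52 TPM in replicate 1 (3.13-fold higher counts). Timm50, the receptor of the complex, had 20.04 TPM and 496 counts in replicate 2, against 0.63 TPM and 27 counts in replicate 1 (7.38-fold higher). Timm21, which tethers TIM23 to TOM, had 22.5 TPM in replicate 2 and 7.22 TPM in replicate 1, and its count ratio of 0.75 was not called.

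The PAM motor held 112 TPM in replicate 2 and 13.3 TPM in replicate 1. Pam16, the J-like regulator of the motor chaperone, had 46.7 TPM and 363 counts in replicate 2, against 1.73 TPM and 23 counts in replicate 1 (6.34-fold higher). Grpel1, its nucleotide exchange factor, had 20.5 TPM and 1321 counts in replicate 2, against 1.26 TPM and 136 counts in replicate 1 (3.90-fold higher). Timm44, which anchors the chaperone at the channel, had 44.7 TPM and 1370 counts in replicate 2, against 10.3 TPM and 292 counts in replicate 1, a ratio of 1.88 that was not called.

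MPP was the group with no call in either direction. Pmpca, its substrate-binding alpha subunit, had 49.98 TPM and 2809 counts in replicate 2, against 10.3 TPM and 985 counts in replicate 1. Pmpcb, the catalytic beta subunit, had 88.9 TPM and 2403 counts in replicate 2, against 80.3 TPM and 1006 counts in replicate 1. The scaled count ratios were 1.15 for Pmpca and 0.96 for Pmpcb. The remaining 2 genes carry the family prefix but have other roles. Timmdc1, an assembly factor of respiratory complex I, had 17.8 TPM in replicate 2 and 2.54 TPM in replicate 1 and was not called. Tomm34, a cytosolic co-chaperone of precursors, had 10.0 TPM in replicate 2 and 0.52 TPM in replicate 1, with 4.71-fold higher counts.

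Counts and TPM gave different ratios for some members. The deposited effective length, by which counts are divided to give TPM, differed at least 1.5-fold in 6 of the 33 tested members: Pmpcb, Timm10b, Timm17a, Timm22, Timm44 and Tomm40l. Timm17a had an effective length of 876 bases in replicate 2 and 7093 bases in replicate 1. In replicate 2, 62.7% of its TPM was assigned to the retained-intron transcript Timm17a-204, on 420 counts. The 7280-base coding transcript Timm17a-201 had 7.86% of TPM there, on 992 counts, and took 100% in replicate 1. Its log2 ratio was -0.19 in counts and 2.44 in nuclear TPM. Pmpcb showed the opposite. Its effective length was 1398 bases in replicate 2 and 386 bases in replicate 1, where the 378-base retained-intron transcript Pmpcb-207 took 75.4% of TPM on 378 counts. The coding transcript Pmpcb-201 had 85.4 TPM in replicate 2 and, on 531 counts, 11.5 TPM in replicate 1. The log2 ratio of Pmpcb was -0.06 in counts and -2.31 in nuclear TPM, and its rank of 108 in replicate 1 rests on that short transcript.

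Timm44 followed Pmpcb. Its coding transcript Timm44-201 made up 85.8% of the gene's TPM in replicate 2 against 17.4% in replicate 1. The retained-intron transcript Timm44-208 made up 3.45% in replicate 2 against 82.4% in replicate 1. It also led by counts in replicate 1, with 197 against 92.7 for Timm44-201. In replicate 2 Timm44-201 led by counts, with 1188 against 21.3 for Timm44-208. The gene's count ratio of 1.88 therefore joins transcripts that differed in opposite directions. In TPM, Mtx2 was led by the 728-base retained-intron transcript Mtx2-202 in both libraries, with 54.3% in replicate 2 and 51.1% in replicate 1. By counts its longer coding transcript Mtx2-201 led, with 852 of 1233 counts in replicate 2 and 948 of 1205 in replicate 1. Timm9 switched between coding transcripts, with Timm9-201 at 78.3% in replicate 2 and 18.9% in replicate 1, and Timm9-202 at 21.8% and 81.1%. Over the 21 members with several annotated transcripts and counts in both libraries, 13 had the same leading transcript in both and 8 did not. The 14 other members have 1 annotated transcript. Whether these assignments follow RNA in the heart or the coverage of each library was not tested.

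**Figure D3:**
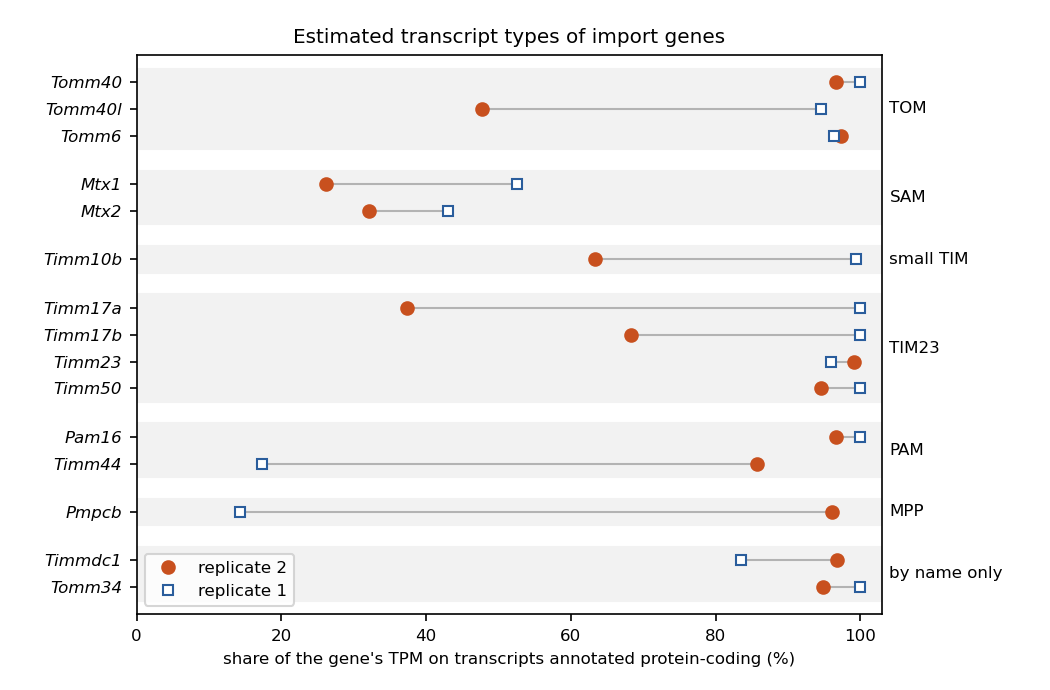
Share of each gene's TPM on transcripts annotated protein-coding (%), filled circles for replicate 2 and open squares for replicate 1, for the 15 genes under 99% in at least 1 library. The share was lower in replicate 2 for 10 genes, with Timm17a at 37.3% against 100%. It was higher in replicate 2 for 5, with Pmpcb at 96.1% against 14.3%. Some replicate 1 shares of 100% rest on few counts: Tomm40 (1), Pam16 (23), Timm50 (27), Tomm34 (29) and Timm17b (37). By posterior mean share, the coding transcript Timm50-201 was at 87.3% in replicate 2 and 52.4% in replicate 1. Timm17b-201 was at 59.0% and 69.9%.

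The make-up of the machinery depended on these transcripts. MPP took 10.1% of the members' TPM in replicate 2 and 32.7% in replicate 1. Counting only transcripts annotated protein-coding, an alternative chosen after seeing the data, MPP took 11.1% in replicate 2 and 11.9% in replicate 1. On the same coding scale TOM took 24.7% in replicate 2 and 34.9% in replicate 1, small TIM 20.4% and 17.3%, TIM23 18.04% and 18.93%, and PAM 8.573% and 2.599%.

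**Figure D4:**
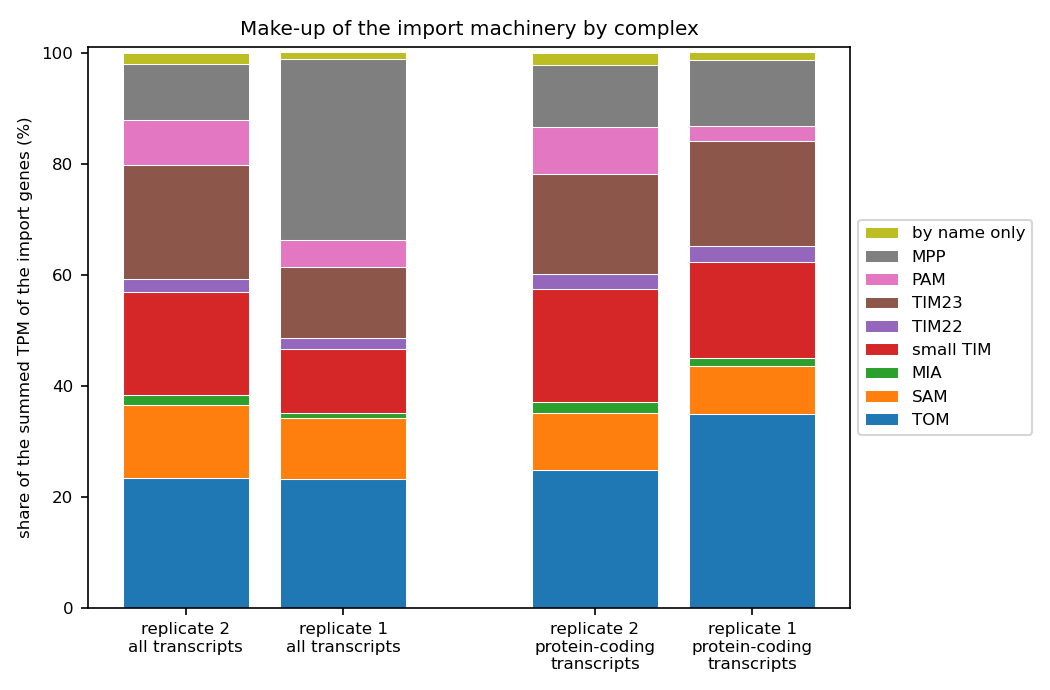
Share of the members' summed TPM (%) by complex in replicate 2 and replicate 1, over all transcripts (left pair of bars) and over transcripts annotated protein-coding (right pair). The MPP block of 32.7% in replicate 1 shrinks to 11.9% when only coding transcripts count.

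Ratios within a library do not depend on its nuclear share, and 9 of 11 fixed pairs had the same sign in both. They were not adjusted for the trend with GC content described below, and the genes of a pair can differ in GC content. They also rest on the deposited effective lengths, which for some genes differ between libraries. Timm17a exceeded Timm17b by 3.36 in replicate 2 and 2.37 in replicate 1 on the log2 TPM scale (mean 2.86 ± 0.70, SD, n = 2 technical replicates). Timm23 exceeded Timm22 in both, with a Timm22 to Timm23 value of -3.65 in replicate 2 and -5.47 in replicate 1. Tomm70a exceeded Tomm20 in both, with -0.78 and -1.95 for Tomm20 over Tomm70a. Tomm20 was at least 31.5-fold above Tomm20l in replicate 2 and at least 19.7-fold in replicate 1. Pmpcb exceeded Pmpca in both, with -0.83 in replicate 2 and -2.94 in replicate 1 for Pmpca over Pmpcb. On transcripts annotated protein-coding alone, Pmpca over Pmpcb was -0.78 in replicate 2 and -0.16 in replicate 1. Mtx2 exceeded Mtx1 in both, with -0.70 in replicate 2 and -4.07 in replicate 1 for Mtx1 over Mtx2. Timm8b exceeded Timm8a1 in both, with -3.83 in replicate 2 and -0.71 in replicate 1 for Timm8a1 over Timm8b.

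The hexamer partners Timm9 and Timm10 changed order: Timm9 over Timm10 was -1.90 in replicate 2 and 3.75 in replicate 1. Timm10 over Timm10b also changed order, at 0.78 in replicate 2 and -2.23 in replicate 1. Both pairs hold Timm10, which had 4 counts in replicate 1. Tomm40 over Tomm40l was -0.31 in replicate 2 and, on 1 count of Tomm40, -3.32 in replicate 1, as differences of log2(TPM + 0.1).

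Library differences of the members went with GC content. Across the 33 tested members the correlation of the log2 ratio with transcript GC content was 0.73 (Pearson) and 0.79 (Spearman), and across 13155 tested genes with a GC value it was 0.85 and 0.90. These are descriptions across genes of the same pair of libraries, and genes are not replicates. Without Timm13 and Tomm40, 31 members gave 0.67 and 0.74. The 9 members under 47% GC had a median log2 ratio of -0.63, against -1.27 over 4456 genes in that range. Of these members 1 was called higher and 2 lower, where 1.05% of the genes in that range were called higher and 65.0% lower. The 9 members between 47% and 52% had a median of 0.46, against 0.25 over 3478 genes. Of these members 2 were called higher and 1 lower, where 22.9% of the genes in that range were called higher and 6.24% lower. The 15 members at 52% or more had a median of 2.35, against 3.01 over 5221 genes. Of these members 13 were called higher and none lower, where 85.9% of the genes in that range were called higher and 0.575% lower. GC content ran from 40.1% in Mtx2, called lower, to 60.8% in Tomm40, called higher.

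**Figure D5:**
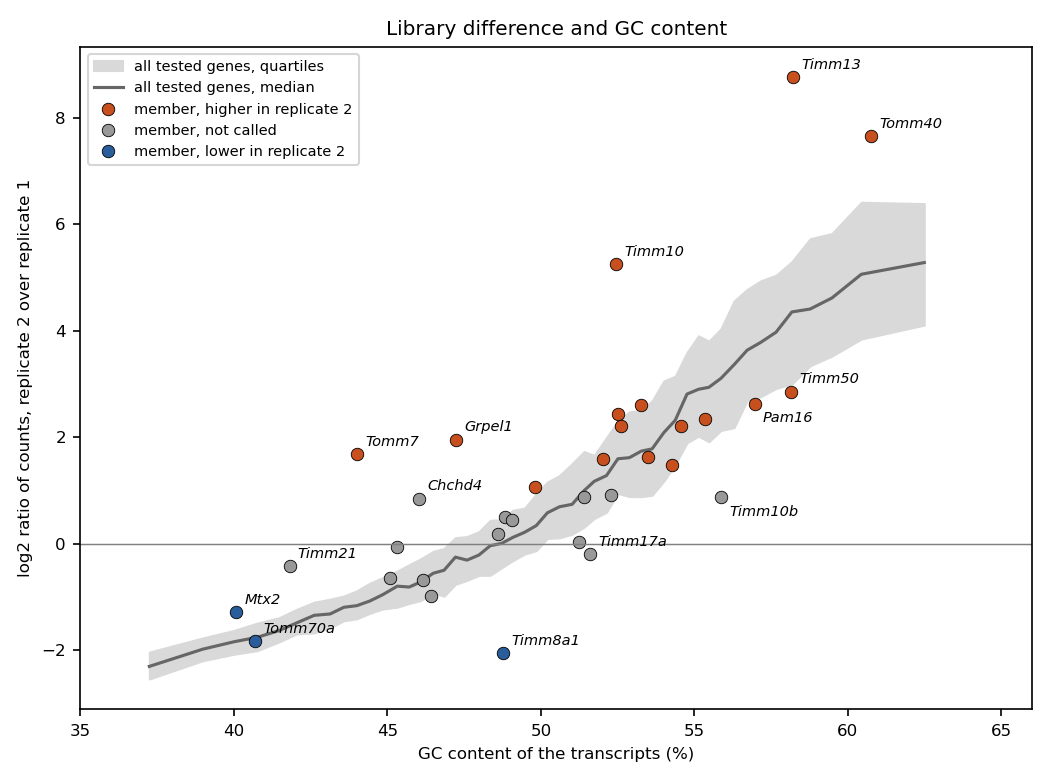
Log2 ratio of scaled counts, replicate 2 over replicate 1, against the GC content of each gene's transcripts (%). Points are the 33 tested members, coloured by call, and the line and band are the median and quartiles of all tested genes in 50 bins. Members above the band include Timm10, Timm13, Tomm40, Tomm7, Grpel1, Chchd4 and Timm21. Members below it include Timm8a1, Timm10b, Timm17a, Timm50 and Pam16.

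With that trend removed, 7 members were higher in replicate 2 and 5 lower, and the shares of all tested genes called were 10.2% and 10.9%. Of the 16 members called higher at first, 5 kept the call: Timm13 (log2 ratio 4.41), Timm10 (3.66), Tomm7 (2.84), Tomm40 (2.59) and Grpel1 (2.21). Chchd4 (1.56) and Timm21 (1.06) were then also called higher. Timm8a1 was called lower in both fits, with -2.07 after removal, whereas Tomm70a (-0.07) and Mtx2 (0.55) were no longer called. Timm50 and Pam16 were called higher at first and lower after removal, with log2 ratios of -1.498 and -1.003. Timm10b (-2.23) and Timm17a (-1.37) were then called lower as well. Samm50 (0.83) and Tomm6 (0.86) were then under 2-fold and lost their calls. The cause of the trend with GC content was not tested.

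Overlapping neighbours add a limit. An exon of 15 members overlaps a gene on the opposite strand. Strand use in counting is a step not given in the sources used here. How reads in such overlaps were divided was not tested. The longest was Tomm40l with Nr1i3 (3304 bases, with 3 counts for Nr1i3 in replicate 2 and none in replicate 1). It was followed by Pmpca with Inpp5e (874 bases, with 562 counts for Inpp5e in replicate 2 against 74 in replicate 1) and Pam16 with Glis2 (455 bases, with 254 counts for Glis2 in replicate 2 against 15 in replicate 1). Timm9 and Tomm20l lie on opposite strands of chromosome 12 and share 49 exonic bases. Tomm6 shares 859 bases with Gm21981, a gene of the same strand.

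Promoters of the members were read for motifs linked to nuclear-encoded mitochondrial genes. RefSeq promoters of GRCm38.p6, from 250 bases before to 50 after the start, matched 32 of the 35 members. The ETS core CCGGAAG, on either strand, was in 15 of 32 (46.9%), against 2265 of 17492 protein-coding genes with a promoter (12.9%). In 13 members a match lay within 60 bases of the start. The NRF-1 core, GCGC and TGCGC with any 1 base between them, on either strand, was in 4 of 32 (12.5%), against 1254 of all (7.17%). A match is a description of letters, not a bound site, and no set test was made. Windows of 30 bases from members with one or both motifs follow, on the strand of the gene with the motif in capitals, since they include genes called higher (Timm10, Timm8b, Pam16), lower (Mtx2) and neither (Tomm22, Pmpcb). They lie at chr2:84827022-84827051 on the plus strand, chr9:50603877-50603906 on the plus strand, chr9:50603909-50603938 on the plus strand, chr16:4624942-4624971 on the minus strand, chr2:74825775-74825804 on the plus strand, chr15:79670809-79670838 on the plus strand and chr5:21737132-21737161 on the plus strand.
Timm10 ETS: aggctagacttcCTTCCGGaagtgacccac
Timm8b ETS: ctgaagcgtgaaCCGGAAGgcaggagacgg
Timm8b NRF-1: cgctgccaccGCGCGTGCGCaccccagcga
Pam16 NRF-1: tcgcgtccttGCGCACGCGCtctccggtct
Mtx2 ETS: ggggcggagcagCCGGAAGtgccggcgcgc
Tomm22 ETS: cagcccggctcgCTTCCGGaagacgctctg
Pmpcb ETS: tggagtcatgacCCGGAAGtacatctccac

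The ETS core was shared by tested genes whose library ratios ran from 43.0 for Timm10 to 0.28 for Tomm70a. In Tomm22 and Timm10 the printed core CTTCCGG runs into a second, overlapping copy on the other strand. Timm8b alone of the 32 had both motifs.

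Genes that act with the machinery were set beside it. Of 17 such genes, 4 were higher in replicate 2 (23.5%), 3 lower (17.6%) and 10 not called, with a median log2 ratio of -0.34 and a median GC content of 47.2%, against 51.4% for the members. Hspa9, the chaperone that drives the PAM motor, had 247 TPM in replicate 2 and 75.2 TPM in replicate 1, above every member in replicate 2, and was not called. The folding chaperonin Hspd1 had 186 TPM in replicate 2 and 78.8 TPM in replicate 1 and was not called. Romo1, a small inner-membrane protein linked to TIM23, had 80.9 TPM and 545 counts in replicate 2, against 0.64 TPM and 4 counts in replicate 1, and was called higher. Oxa1l, the insertase of the inner membrane, had 30.2 TPM in replicate 2 and 0.91 TPM in replicate 1, and was called higher. Immp1l, an inner-membrane peptidase, had 48.1 TPM and 713 counts in replicate 2, against 35.3 TPM and 880 counts in replicate 1, and was called lower. Dnajc15 and Mtx3 were the other genes called lower, and Immp2l and Dnajc11 the others called higher.

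The member values were close to those of other nuclear-encoded mitochondrial families. Of 77 mitochondrial ribosomal protein genes, 39 (50.6%) were higher in replicate 2 and 4 (5.19%) lower, with a median log2 ratio of 1.13. Of 39 tested Slc25a carriers, the main substrates of the TIM22 route, 18 (46.2%) were higher and 6 (15.4%) lower, with a median of 0.85. The import genes, at 48.5% higher and 9.09% lower with a median of 0.91, lay between these families, and no test of a difference was made.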

How the data were processed

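Expected counts, which need not be whole, TPM and effective lengths per gene and per transcript are in the tables the authors deposited for mm10 with annotation M4, per the deposited file descriptions. Transcript shares of a gene's TPM are deposited as percent. Aligner, abundance program and strand use were not given in the sources used here. Identifiers were matched without version to GENCODE M21, and 42462 of 69691 features received a symbol. Members and lists were chosen with earlier results of these data known, and every member is named. Groups follow the complexes.

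Counts were rounded, and the 13182 genes with at least 20 counts over both libraries were tested with edgeR 4.0.16 (R 4.3.3), as a two-sided exact binomial test between the libraries, a script tested on simulated data. Log2 ratios have 0.5 counts added. P-values and intervals (95%) cover counting error alone (reads are not independent molecules), and spread between libraries is technical. A count of 0 allows 3 counts. Within-library ratios use log2(TPM + 0.1). GC content is the TPM-weighted mean over M21 transcripts, known for 99.8% of tested genes, and its trend was the median in 50 bins. Near-identical genes were found with blastn 2.17.0 at 95% identity over at least 200 bases. Alternatives were DESeq2 1.42.0 size factors, nuclear totals, no count filter, posterior mean values, 2 counts added, other TPM thresholds and pseudocounts, GC-trend removal, each library left out, and coding transcripts alone (chosen after seeing the data). Coordinates are 1-based.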

Additional observations from a re-analysis of the deposited data

How the results depend on the processing

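The counts of members called (16 higher, 3 lower) and their median log2 ratio (0.91) stayed within 1.5 times or 0.1 under DESeq2 size factors, nuclear totals, no count filter, posterior mean counts and 2 counts added. Removing the GC trend gave 7 higher, 5 lower and a median of 0.31. It also turned the sign of the log2 ratio in 15 members. In 9 of them a call was involved: Timm50 to -1.50, Pam16 to -1.003, Timm10b to -2.23, Gfer to -0.84, Tomm40l to -0.60, Mtx1 to -0.60, Timm17b to -0.16, Mtx2 to 0.55 and Timm21 to 1.06. The 6 others were not called in either fit: Timm29 to -0.96, Timm44 to -0.37, Timmdc1 to -0.13, Tomm22 to 0.0359, Tomm20 to 0.32 and Pmpcb to 0.73. The median log2 ratio of all tested genes was 0.37 with TMM, 0.29 with DESeq2 size factors and 0.34 with nuclear totals. With DESeq2 size factors Timm8b (0.98) lost its call and Timm9 (-1.06) gained one, Timm29 turned to -0.036 without a call, and 30 members kept sign and call. A threshold of 5 TPM left 11 members in place of 25 in both libraries, and nuclear TPM gave a mean sum of 3772 in place of 825. Coding transcripts alone gave 698 TPM and 24 members. Leaving out a library gave Timm9 over Timm10 between -1.90 and 3.75, and Timm10 over Timm10b between -2.23 and 0.78. With 1 TPM added, Tomm20 over Tomm20l was 3.08 and Chchd4 over Gfer 1.204, and with posterior mean TPM Tomm20 over Tomm20l was 5.21. The cause of these shifts was not tested. With 1 library left, no test between libraries was possible. Counts under 5 in replicate 1 limit the ratios of Tomm40, Timm10 and Timm13.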
